A study of Mus musculus with 16 samples.

Results

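The genes described are 3 receptors of the epidermal growth factor (EGF) receptor family, Egfr, Erbb2 and Erbb3, and 5 ligands of the family, Areg, Ereg, Hbegf, Tgfa and Btc. They were taken by name, with each probe set whose only annotated symbol is one of these 8. Such a probe set was used for 7 of the 8, and Areg was not analysed here. The 7 genes had 16 of the 20380 one-symbol probe sets of the array, which cover 12393 genes. A probe set was kept when it was above the 40th percentile of its array on at least 2 arrays. Of the 16, 14 were kept, and all 7 genes had at least 1 among the 9058 genes tested. The dropped ones were 1454313_at of Egfr, at 44.3 to 92.6, and 1452482_at of Erbb3, at 4.37 to 33.0. Where a gene had several kept probe sets, the brightest on average stood for it, and the others are given beside it.

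Total skin was compared between mice of the transgenic line D2, K14deltaNB-cateninER, and wild-type C57BL/6 mice after 0, 1 or 7 days of 4-hydroxytamoxifen. The transgene joins a stabilised β-catenin, shortened at its N-terminus, to the hormone-binding part of the oestrogen receptor. It is driven by the promoter of keratin 14, a keratin of basal epidermis, and the drug switches the fusion protein on. There were 2, 3 and 3 transgenic arrays at days 0, 1 and 7, and 3, 3 and 2 wild-type arrays, 16 in all. Wild-type mice were given the same drug, so each genotype has an untreated day 0 and 2 treated times. The transgenic mice come from 1 line. No array of skin given vehicle alone was analysed, so the drug, its handling and passing time cannot be told apart within a genotype. The ages of the mice and the part of the body are not given in the sources used here. Some labels speak of a mouse and others of mice, so whether RNA was pooled is unknown, and p-values cover only the spread among these arrays, which may be technical. Arrays of a group are numbered as their titles number them.

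EGF family ligands are made as membrane-bound precursors, and metalloproteases such as Adam17 cut them free. Egfr binds all 5 ligands named above. Erbb2 has no ligand of its own and pairs with other family members, and Erbb3, which binds neuregulins, has little kinase activity and signals through its partners. In epidermis the pathway is known for driving keratinocyte growth and migration, and Egfr for restraining terminal differentiation and for its part in the hair cycle.

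Values are the deposited intensities, scaled to 1 common trimmed mean per array, and differences are on the log2(intensity + 32) scale with the standard error (SE) of a limma fit over all 16 arrays. A gene passed the test at an adjusted p under 0.05 over the 9058 genes. The level of one probe set cannot be set against that of another. Esr1, part of which the transgene carries, lay at 80.7 to 408 on the 8 transgenic and at 13.3 to 50.0 on the 8 wild-type arrays, as the labels state the genotypes. All 10 basal epidermis markers were tested, and Krt14, their most familiar keratin, lay at 6119 or more on every array. The ratio of 3' to 5' signal was 0.884 to 1.26 for Gapdh and 1.28 to 1.87 for actin. Without further scaling the median of all genes moved to -0.16 for transgenic day 1 against day 0, where the scaled value was -0.03, and to -0.13 for transgenic day 7 against day 0, where it was 0.01.

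The promoter sequences below are the 250 bases before the annotated start of 3 members. They are shown because Btc and Erbb2 changed differently in the 2 genotypes to day 7 while Egfr did not pass that test. Sequences are from RefSeq on GRCm38.p6, whose promoter table matched 5 of the 8 names, and are written 5′ to 3′ on the gene's strand. Capitals mark a GC box, GGGCGG on either strand.
Btc, at chr5:91402995-91403244 on the minus strand: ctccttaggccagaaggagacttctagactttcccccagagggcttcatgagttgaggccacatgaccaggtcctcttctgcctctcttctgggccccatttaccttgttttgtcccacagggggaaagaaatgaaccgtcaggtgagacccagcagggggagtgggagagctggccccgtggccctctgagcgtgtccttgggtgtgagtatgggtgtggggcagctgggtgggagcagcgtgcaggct
Erbb2, at chr11:98412234-98412483 on the plus strand: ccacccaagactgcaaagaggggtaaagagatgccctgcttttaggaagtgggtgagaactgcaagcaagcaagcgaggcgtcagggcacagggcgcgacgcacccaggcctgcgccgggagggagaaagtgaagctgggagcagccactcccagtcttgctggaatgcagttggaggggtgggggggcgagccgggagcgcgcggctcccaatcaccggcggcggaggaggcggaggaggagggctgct
Egfr, at chr11:16751953-16752202 on the plus strand: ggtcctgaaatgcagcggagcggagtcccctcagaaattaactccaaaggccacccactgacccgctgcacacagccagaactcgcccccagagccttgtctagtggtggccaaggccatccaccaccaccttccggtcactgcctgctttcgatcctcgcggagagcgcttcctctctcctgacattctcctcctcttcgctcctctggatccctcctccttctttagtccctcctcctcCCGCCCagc
The letters of the sites bound by LEF/TCF factors, through which β-catenin acts on genes (CTTTG followed by 2 bases that are each A or T, on either strand), were not in any of the 3 windows, and they were in 14.8% of the 32851 windows of that length in the table. A TATA box (TATAAA, on either strand) was in none of the 3 and in 12.4% of all. The GC box was in the Egfr window only, and in 32.7% of all. GC content was 59.6% for Btc, 66% for Erbb2 and 60.8% for Egfr, and the median of all windows was 52.4%. These are letters in a window and not sites shown to be bound.

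**Figure D1:**
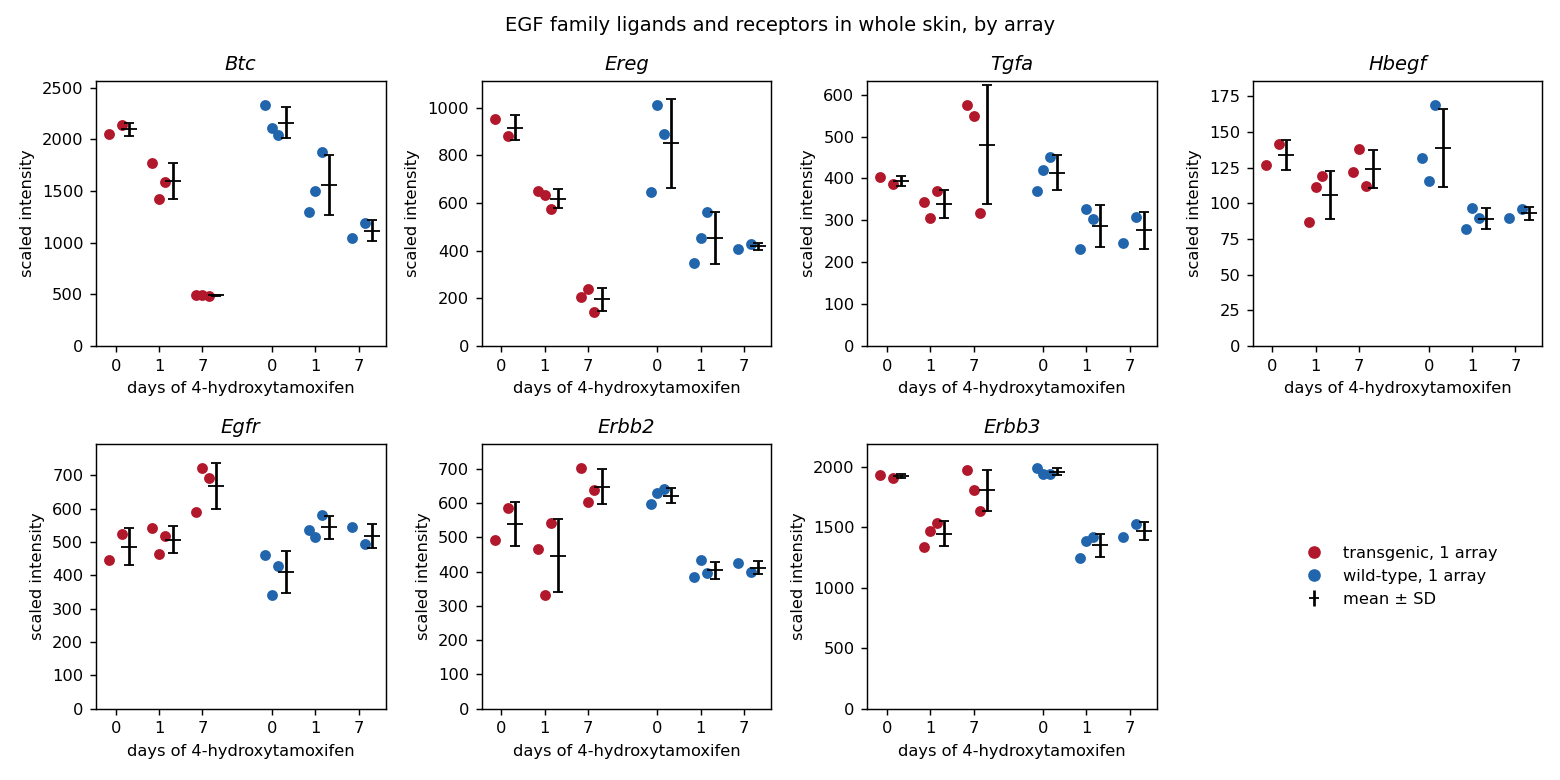
Scaled intensity (linear axis from 0) of the 7 genes on each of the 16 arrays, by days of 4-hydroxytamoxifen, with transgenic arrays in red left of wild-type arrays in blue. Points are arrays and bars the mean ± SD of a group. The 3 transgenic day 7 arrays lie at 485 to 497 for Btc and at 144 to 240.0 for Ereg, below all 13 other arrays.

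Btc and Ereg had the largest differences of the 7 genes, and both were downward. Btc encodes betacellulin, which activates Egfr and Erbb4, and Ereg encodes epiregulin, a low-affinity ligand of the same receptors. At day 7 of the drug, Btc in transgenic skin was at 23.4% of its day 0 level and Ereg at 21.4%. In wild-type skin they were at 51.6% and 49.2% of day 0.

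Btc had an intensity of 2052 and 2144 on the transgenic day 0 arrays, of 1768, 1419.6 and 1592 at day 1, and of 497, 490.3 and 485 at day 7. On the wild-type arrays it had 2332, 2114 and 2043 at day 0, 1301, 1500.5 and 1878 at day 1, and 1044 and 1187 at day 7. The 3 transgenic day 7 values lay close together and below every other array, and the wild-type day 7 values came next. From day 0 to day 7 Btc fell by 2.03 ± 0.13 on the log2 scale in transgenic skin (SE, adjusted p = 1.9e-08). It fell by 0.94 ± 0.13 in wild-type skin (adjusted p = 0.000477). The genotypes differed in this change by -1.09 ± 0.18 (adjusted p = 0.00067). At day 1 the wild-type fall of 0.48 ± 0.12 passed the test (adjusted p = 0.00851), and the transgenic difference of -0.40 ± 0.13 did not (adjusted p = 0.0603). The wild-type call was lost without array 1 of wild-type day 1 (-0.36, adjusted p = 0.0505) and without further scaling (-0.41, adjusted p = 0.316), and the transgenic value passed without array 1 or 3 of wild-type day 1 (adjusted p = 0.0377 and 0.029). The genotype difference in the change to day 1 was 0.08 ± 0.17 (adjusted p = 0.861). In order of mean, wild-type day 0 stood at 2163 ± 151 (SD, n = 3), transgenic day 0 at 2098 ± 64.8 (SD, n = 2), transgenic day 1 at 1593 ± 174 (SD, n = 3), wild-type day 1 at 1560.1 ± 293 (SD, n = 3), wild-type day 7 at 1116 ± 101 (SD, n = 2) and transgenic day 7 at 490.7 ± 5.81 (SD, n = 3). The arrays of the genotypes overlapped at day 0 and at day 1, and the other neighbours in this order did not overlap.

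The other Btc probe set, 1421161_at, fell at day 7 in both genotypes. It had 286 and 372 on the transgenic day 0 arrays, 225, 212 and 159 at day 1, and 88.5, 73.4 and 81.8 at day 7. In wild-type skin it had 309, 267 and 295 at day 0, 199.7, 244 and 275 at day 1, and 129.6 and 182 at day 7. It fell by 1.66 ± 0.17 in transgenic skin at day 7 (adjusted p = 2.46e-06, limma over all 13882 kept probe sets) and by 0.79 ± 0.17 in wild-type skin (adjusted p = 0.00906). The difference in change was -0.87 ± 0.24 (adjusted p = 0.018). At day 1 it was this probe set that passed in transgenic skin, at -0.65 ± 0.17 (adjusted p = 0.0273), while in wild-type skin it stood at -0.25 ± 0.15 (adjusted p = 0.24). At day 1 the 2 probe sets thus gave opposite answers on which genotype passed, and at day 7 they gave the same one.

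Ereg followed Btc. Its intensity was 954 and 879 on the transgenic day 0 arrays, 648, 633 and 573 at day 1, and 205, 240.0 and 144 at day 7. On the wild-type arrays it was 647, 1010.2 and 891 at day 0, 347, 453 and 563 at day 1, and 409 and 428 at day 7. All 3 transgenic day 7 arrays were below every other array, and 1 wild-type day 0 array was as low as the highest transgenic day 1 array. From day 0 to day 7 Ereg fell by 2.08 ± 0.20 in transgenic skin (adjusted p = 1.08e-06) and by 0.95 ± 0.20 in wild-type skin (adjusted p = 0.00707), where the call was lost without array 1 of wild-type day 7 (-0.92, adjusted p = 0.0671). The difference in change was -1.13 ± 0.28 (adjusted p = 0.00968). At day 1 Ereg was at -0.54 ± 0.20 in transgenic skin (adjusted p = 0.0929, but 0.034 in a fit of those groups alone) and fell by 0.86 ± 0.18 in wild-type skin (adjusted p = 0.0037). Its means ran from transgenic day 0 at 916 ± 52.9 (SD, n = 2) through wild-type day 0 at 849 ± 185 (SD, n = 3), transgenic day 1 at 618 ± 39.7 (SD, n = 3), wild-type day 1 at 454 ± 108 (SD, n = 3) and wild-type day 7 at 418 ± 13.4 (SD, n = 2) to transgenic day 7 at 196 ± 48.5 (SD, n = 3). In that order transgenic day 1 did not overlap wild-type day 1, nor wild-type day 7 transgenic day 7, and the other neighbours overlapped.

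Over the 16 arrays the log2 values of Btc and Ereg correlated at Pearson's r = 0.93, a description across arrays that share their groups. The genes are neighbours on chromosome 5. Among protein-coding genes of the GRCm38.p6 annotation the order there is Mthfd2l, Epgn, Ereg, Areg, Btc, Parm1. Epgn encodes epigen, another Egfr ligand, and did not follow Ereg in transgenic skin. It was at 0.18 ± 0.23 at day 7 against day 0 (adjusted p = 0.582), with means of 242 ± 25.2 (SD, n = 3) at day 7 and 223 ± 113 (SD, n = 2) at day 0. It fell by 0.71 ± 0.20 in wild-type skin at day 1 (adjusted p = 0.0199), a call lost without array 2 or 3 of wild-type day 0 or array 1 of wild-type day 1 (adjusted p = 0.0594 to 0.0838), and was at -0.40 ± 0.23 at day 7 (adjusted p = 0.277).

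These are levels in whole skin, in which fewer cells of a type and less RNA per cell cannot be told apart. The marker counts here stand beside the shares of all genes that passed at day 7 against day 0. Those shares were 38.7% in transgenic skin (18.6% higher, 20.1% lower) and 11.4% in wild-type skin (5.46% higher, 5.96% lower). The summed level of the 10 basal epidermis markers was 34541 to 35331 on the transgenic day 7 arrays and 44156 to 50658 at day 0, with 6 of 10 markers lower and 0 higher at a median of -0.55. In wild-type skin it was 38357 to 42731 at day 7 and 46544 to 50735 at day 0, with 3 of 10 lower. Krt14 itself was at -0.08 ± 0.09 in transgenic skin at day 7 against day 0 (adjusted p = 0.508) and Krt5 at -0.23 ± 0.10 (adjusted p = 0.0873, but 0.00379 with quantile normalization). Markers of the hair shaft and inner root sheath, 11 of 12 measured, summed to 32470.5 to 51524 at transgenic day 7 and to 1770.4 to 2118 at day 0, with 10 of 11 higher, of which 9 passed the filter only through transgenic day 7. Fat cell markers, 4 of 5 measured, summed to 5088 to 6362 at transgenic day 7 and to 14206 to 16933 at day 0, with all 4 lower. Endothelial markers, 5 of 6 measured, summed to 782 to 1003 at transgenic day 7 and to 1538 to 1574 at day 0, with all 5 lower at a median of -0.76. Skeletal muscle markers summed to 25977 to 33469 at transgenic day 7 and to 44437 to 49589 at day 0, with 4 of 5 lower at a median of -0.94. Differentiated epidermis markers, 11 of 12 measured, summed to 45506 to 50145 at transgenic day 7 and to 47476.5 to 52335 at day 0, with 2 higher and 4 lower. Of 7 sebaceous gland markers 1 was higher and 2 lower, and of 7 fibroblast markers 2 were higher and 2 lower. Of 5 tested mast cell markers 1 was higher and 2 lower, and of 4 tested T cell markers 0 were higher and 2 lower. Whether these shifts in marker levels take part in the falls of Btc and Ereg was not tested.

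Of the other ligands, neither Tgfa nor Hbegf passed the test in transgenic skin against day 0. Tgfa encodes transforming growth factor alpha, a high-affinity ligand of Egfr made by keratinocytes. Its brightest probe set, 1421943_at, had 402 and 386 on the transgenic day 0 arrays, 344, 305 and 369.9 at day 1, and 575, 549 and 317 at day 7. In wild-type skin it had 369.99, 421 and 451 at day 0, 232, 327 and 303 at day 1, and 245 and 307 at day 7. Array 3 of transgenic day 7 stood far below the other day 7 arrays of its group, so that group spanned the widest range. The probe set was at 0.22 ± 0.20 at transgenic day 7 against day 0 (adjusted p = 0.406) and at -0.54 ± 0.20 in wild-type skin (adjusted p = 0.0906). Without array 3 of transgenic day 7 the transgenic value was 0.48 (adjusted p = 0.0232), and the wild-type value passed (adjusted p = 0.0203), as it did in a fit of the compared groups alone (adjusted p = 0.0406). In order of mean, transgenic day 7 stood at 481 ± 142 (SD, n = 3), wild-type day 0 at 414 ± 40.9 (SD, n = 3), transgenic day 0 at 394 ± 11.4 (SD, n = 2), transgenic day 1 at 339.7 ± 32.8 (SD, n = 3), wild-type day 1 at 287 ± 49.8 (SD, n = 3) and wild-type day 7 at 276 ± 43.8 (SD, n = 2). The 1 pair of neighbours that did not overlap was transgenic day 0 and transgenic day 1.

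The probe sets of Tgfa gave different directions in wild-type skin. At wild-type day 1 against day 0, 1421943_at stood at -0.49 ± 0.18 (adjusted p = 0.0608 over all kept probe sets; 0.0111 in the fit of genes without array 3 of transgenic day 7), while 1450421_at rose by 0.47 ± 0.16 (adjusted p = 0.0483) and 1421942_s_at was at 0.62 ± 0.21 (adjusted p = 0.0505). The intensity of 1450421_at was 232, 186 and 223 on the wild-type day 1 arrays and 132, 154 and 149.96 at day 0. It also rose by 0.49 ± 0.18 at transgenic day 7 against day 0 (adjusted p = 0.0429), with 223, 316 and 259 at day 7 and 177 and 179 at day 0. The direction of Tgfa in wild-type skin therefore depends on the probe set read. At transgenic day 7 all 3 probe sets had values above 0 against day 0, and 1 of the 3 passed.

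Hbegf encodes heparin-binding EGF-like growth factor, a ligand induced in keratinocytes at wound edges. Its intensity was low throughout, above the 40th percentile on 8 of the 16 arrays and on 0 of the 5 treated wild-type ones. It was 127 and 142 on the transgenic day 0 arrays, 86.6, 111 and 119 at day 1, and 122, 138 and 112 at day 7. On the wild-type arrays it was 132, 115 and 169 at day 0, 81.7, 96.7 and 89.5 at day 1, and 89.7 and 96.3 at day 7. It fell by 0.48 ± 0.14 in wild-type skin at day 1 (adjusted p = 0.0232), and every wild-type day 0 array was above every treated wild-type array. In transgenic skin it was at -0.28 ± 0.16 at day 1 (adjusted p = 0.279) and at -0.09 ± 0.16 at day 7 (adjusted p = 0.689). At wild-type day 7 it was at -0.44 ± 0.16 (adjusted p = 0.0854), and it passed there only with quantile normalization among the 26 alternatives (-0.53, adjusted p = 0.0419). All neighbours in the order of its 6 group means overlapped. The wild-type call was lost without array 3 of wild-type day 0 (-0.36, adjusted p = 0.102), without array 1 of wild-type day 1 (-0.44, adjusted p = 0.0869) and without array 3 of wild-type day 1 (-0.49, adjusted p = 0.0522), and without further scaling (-0.42, adjusted p = 0.313). The other Hbegf probe set, 1418350_at, was at -0.03 ± 0.18 there (adjusted p = 0.913), and in transgenic skin it rose by 0.68 ± 0.18 at day 7 against day 1 (adjusted p = 0.00673).

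**Figure D2:**
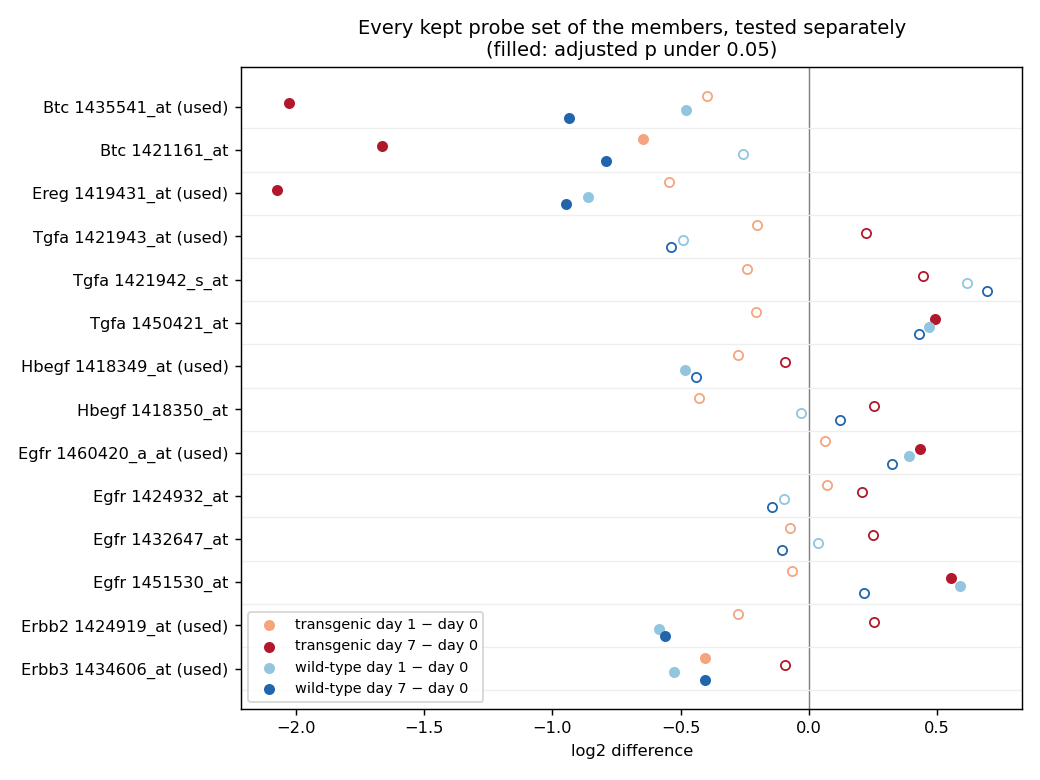
Log2 difference (x axis) of each of the 14 kept probe sets of the 7 genes, tested separately, for day 1 and day 7 against day 0 in transgenic (reds) and wild-type (blues) skin. Filled points passed an adjusted p of 0.05. Both Btc probe sets lie left of 0 at each time, while the Tgfa probe sets lie on both sides of 0 in wild-type skin, and 2 of the 4 Egfr probe sets have no filled point.

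Among the receptors, Erbb2 and Erbb3 fell in wild-type skin at both treated times, and in transgenic skin neither passed the test at day 7 against day 0, while Egfr rose there. Erbb2, the ligandless partner receptor, had 492 and 585 on the transgenic day 0 arrays, 466, 332 and 541 at day 1, and 703, 602 and 639 at day 7. In wild-type skin it had 597, 628 and 639.6 at day 0, 385, 433 and 395 at day 1, and 425 and 398 at day 7. No treated wild-type array reached an untreated one, whereas each transgenic day 7 array was above both transgenic day 0 arrays. Erbb2 fell by 0.59 ± 0.13 in wild-type skin at day 1 (adjusted p = 0.00563) and by 0.56 ± 0.15 at day 7 (adjusted p = 0.0217). In transgenic skin it was at -0.27 ± 0.15 at day 1 (adjusted p = 0.245) and at 0.26 ± 0.15 at day 7 (adjusted p = 0.189) against day 0. Between day 1 and day 7 it rose by 0.53 ± 0.13 in transgenic skin (adjusted p = 0.00412). The genotype difference in the change to day 7 was 0.82 ± 0.21 (adjusted p = 0.0104). That call was lost without array 1 of transgenic day 0 (0.70, adjusted p = 0.0556) and without further scaling (0.71, adjusted p = 0.199). The wild-type call at day 7 was lost without any 1 of 4 arrays, arrays 2 and 3 of wild-type day 0 and both of wild-type day 7, at -0.61 to -0.52 (adjusted p = 0.0552 to 0.131).

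Without further scaling the calls of Erbb2 in wild-type skin were lost, at -0.52 at day 1 (adjusted p = 0.154) and -0.60 at day 7 (adjusted p = 0.193), as was its rise between transgenic day 1 and day 7 (0.51, adjusted p = 0.0701). The means of Erbb2 were 648 ± 50.9 at transgenic day 7 (SD, n = 3), 622 ± 21.9 at wild-type day 0 (SD, n = 3), 539 ± 65.2 at transgenic day 0 (SD, n = 2), 446 ± 106 at transgenic day 1 (SD, n = 3), 411 ± 19.2 at wild-type day 7 (SD, n = 2) and 404 ± 25.2 at wild-type day 1 (SD, n = 3). The arrays of wild-type day 0 and transgenic day 0 did not overlap, and all other neighbours in this order did.

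Erbb3, a neuregulin receptor, had 1936 and 1911 on the transgenic day 0 arrays, 1338, 1473 and 1534 at day 1, and 1977, 1808 and 1639 at day 7. On the wild-type arrays it had 1993, 1943 and 1941 at day 0, 1246, 1386 and 1423 at day 1, and 1421 and 1524 at day 7. All day 1 arrays of both genotypes were below all day 0 arrays, and all 3 transgenic day 7 arrays were above every day 1 array. It fell by 0.40 ± 0.09 in transgenic skin at day 1 (adjusted p = 0.0134) and by 0.53 ± 0.08 in wild-type skin (adjusted p = 0.000767). At day 7 it was at -0.09 ± 0.09 in transgenic skin (adjusted p = 0.478) and had fallen by 0.41 ± 0.09 in wild-type skin (adjusted p = 0.0115). From day 1 to day 7 it rose by 0.31 ± 0.08 in transgenic skin (adjusted p = 0.00717) and was at 0.12 ± 0.09 in wild-type skin (adjusted p = 0.529). The difference in the change to day 7 was 0.31 ± 0.13 and did not pass (adjusted p = 0.101). The transgenic call at day 1 was lost without array 1 of transgenic day 0 (adjusted p = 0.0689) and without array 2 (adjusted p = 0.093), with values of -0.39 and -0.41. The wild-type call at day 7 was lost without array 1 of wild-type day 7 (-0.36, adjusted p = 0.124).

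Without further scaling Erbb3 passed in none of these comparisons, with -0.54 at transgenic day 1 (adjusted p = 0.288), -0.46 at wild-type day 1 (adjusted p = 0.257), -0.45 at wild-type day 7 (adjusted p = 0.493) and 0.29 between transgenic day 1 and day 7 (adjusted p = 0.371). The transgenic day 1 call was also lost in a fit of those groups alone (-0.40, adjusted p = 0.0722). The 6 group means of Erbb3 ran from 1959 ± 29.4 at wild-type day 0 (SD, n = 3), 1923.5 ± 17.7 at transgenic day 0 (SD, n = 2) and 1808 ± 169 at transgenic day 7 (SD, n = 3) to 1473 ± 73.5 at wild-type day 7 (SD, n = 2), 1449 ± 101 at transgenic day 1 (SD, n = 3) and 1352 ± 93.2 at wild-type day 1 (SD, n = 3). The last 3 overlapped each other, transgenic day 7 overlapped transgenic day 0, and the other neighbours did not overlap.

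Egfr, the receptor of the 5 ligands, had 446 and 524 on the transgenic day 0 arrays with 1460420_a_at, 542, 462 and 517 at day 1, and 589.9, 722 and 690.4 at day 7. In wild-type skin it had 460.4, 341 and 428 at day 0, 535, 514 and 582 at day 1, and 544 and 493 at day 7. The 3 transgenic day 7 arrays were the 3 highest of the 16. It rose by 0.44 ± 0.13 in transgenic skin at day 7 (adjusted p = 0.0138) and by 0.39 ± 0.11 in wild-type skin at day 1 (adjusted p = 0.0235). In wild-type skin at day 7 it was at 0.33 ± 0.13 (adjusted p = 0.112), and in transgenic skin at day 1 at 0.06 ± 0.13 (adjusted p = 0.799). The difference in the change to day 7 was 0.11 ± 0.18 (adjusted p = 0.707). The rise at transgenic day 7 was lost without array 1 of transgenic day 0 (0.33, adjusted p = 0.152), without array 2 of transgenic day 7 (0.38, adjusted p = 0.0537) and without further scaling (0.07, adjusted p = 0.899). The wild-type rise was lost without array 2 of wild-type day 0 (0.27, adjusted p = 0.125), array 1 of wild-type day 1 (0.40, adjusted p = 0.0599) or array 3 of wild-type day 1 (0.34, adjusted p = 0.0794), and without further scaling it turned to -0.03 (adjusted p = 0.968).

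The order of the Egfr means was transgenic day 7 at 667 ± 68.9 (SD, n = 3), wild-type day 1 at 543 ± 34.8 (SD, n = 3), wild-type day 7 at 518 ± 36.2 (SD, n = 2), transgenic day 1 at 507 ± 40.8 (SD, n = 3), transgenic day 0 at 485 ± 55.6 (SD, n = 2) and wild-type day 0 at 409.6 ± 61.9 (SD, n = 3). Below the first, all neighbours overlapped. The 4 kept Egfr probe sets differed in what they showed. Probe set 1451530_at rose by 0.55 ± 0.18 at transgenic day 7 (adjusted p = 0.0268) and by 0.59 ± 0.16 at wild-type day 1 (adjusted p = 0.0193). Probe set 1424932_at, nearly as bright as the first, was at 0.21 ± 0.12 (adjusted p = 0.189) and -0.10 ± 0.11 (adjusted p = 0.542) in these comparisons. For 1432647_at the values were 0.25 ± 0.20 (adjusted p = 0.359) and 0.04 ± 0.18 (adjusted p = 0.899). The rises of Egfr therefore hold for 2 of its 4 kept probe sets.

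**Figure D3:**
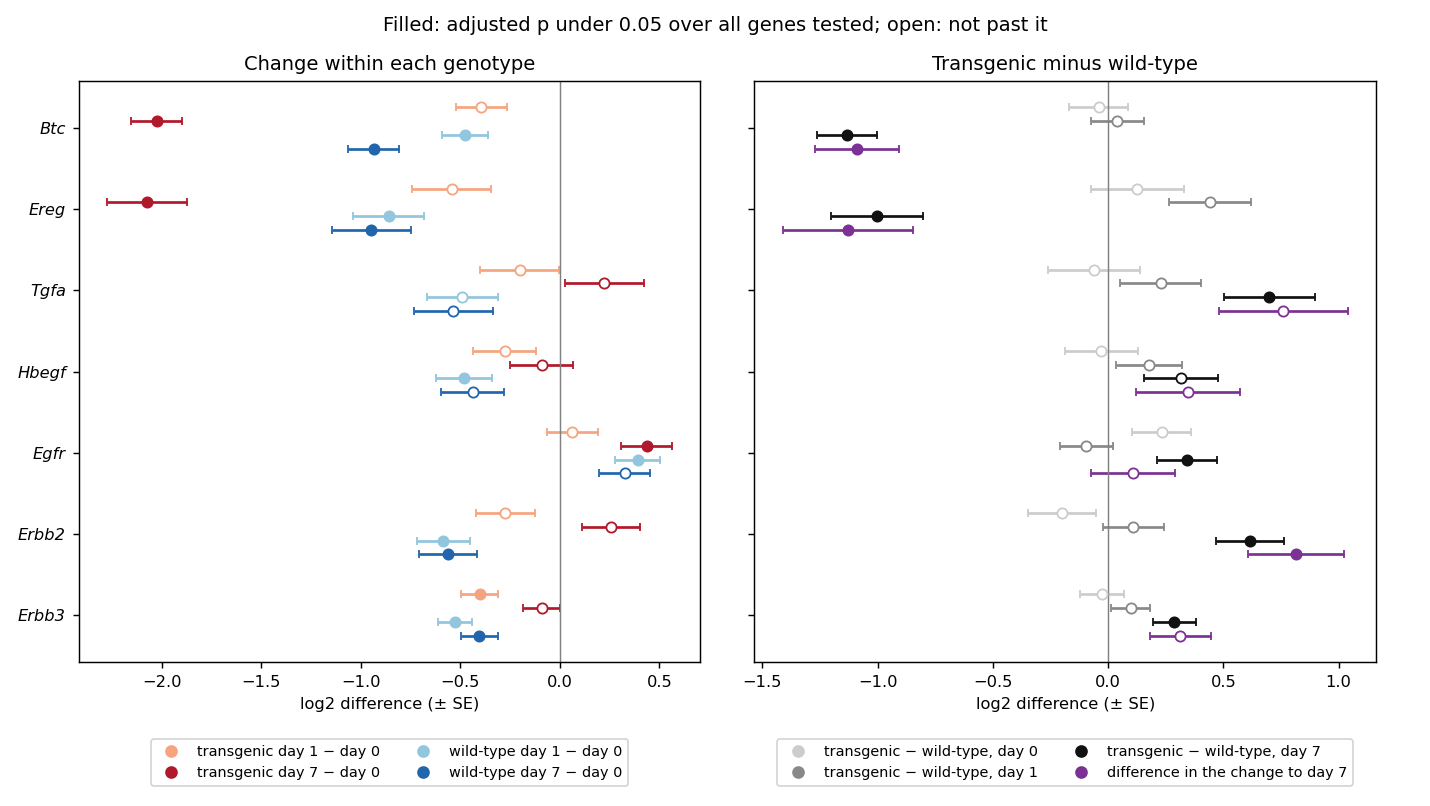
Log2 differences ± SE of the 7 genes within each genotype (left) and of transgenic minus wild-type skin (right), with filled points for an adjusted p under 0.05 over 9058 genes. Btc and Ereg lie furthest left at transgenic day 7, and at day 0 and day 1 no gene has a filled point between the genotypes.

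Between the genotypes, the question is whether treated transgenic skin differs from wild-type skin given the same drug. At day 0, 0 of the 7 genes passed in limma, with 0 at an unadjusted p under 0.05, where 0.011% of all genes passed. At day 1, 0 of the 7 passed and 1 had an unadjusted p under 0.05, where 1.31% of all genes passed. That 1 was Ereg, at 0.44 ± 0.18 (adjusted p = 0.183), with its 3 transgenic arrays above its 3 wild-type arrays. At day 7, 6 of the 7 passed, 4 of them higher and 2 lower, where 40.5% of all genes passed, 19.5% higher and 21% lower. All 7 had groups that did not overlap, as did 63% of all genes.

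At day 7 Btc and Ereg were lower in transgenic than in wild-type skin, Btc at -1.13 ± 0.13 (adjusted p = 7.62e-06) and Ereg at -1 ± 0.20 (adjusted p = 0.000993). Higher in transgenic skin were Tgfa, by 0.70 ± 0.20 (adjusted p = 0.0105), Erbb2, by 0.62 ± 0.15 (adjusted p = 0.00351), Egfr, by 0.34 ± 0.13 (adjusted p = 0.044), and Erbb3, by 0.29 ± 0.09 (adjusted p = 0.0233). Hbegf was at 0.32 ± 0.16 (adjusted p = 0.125). The calls for Btc, Ereg and Erbb2 held under each of the 27 other settings tried for them. Of the other calls, those of Tgfa and Erbb3 were lost without array 1 of wild-type day 7, at 0.55 (adjusted p = 0.117) and 0.24 (adjusted p = 0.163). That of Erbb3 was also lost without array 1 of transgenic day 7 (0.22, adjusted p = 0.0999) and without array 2 of transgenic day 7 (0.28, adjusted p = 0.0546), without further scaling (0.34, adjusted p = 0.377) and in a fit of those groups alone (0.29, adjusted p = 0.0572), in which Tgfa was at 0.70 (adjusted p = 0.0535). The call of Egfr was lost with the replicate number as a block (0.31, adjusted p = 0.0801) and without any 1 of 7 arrays (adjusted p = 0.0504 to 0.233). The Egfr call was also lost with no filter (adjusted p = 0.0572), quantile normalization (0.31, adjusted p = 0.0601), its most variable probe set (0.48, adjusted p = 0.0501) and no further scaling (0.25, adjusted p = 0.508). Tgfa depended on its probe set here as well, with 1421942_s_at at 0.37 ± 0.24 (adjusted p = 0.246) and 1450421_at at 0.31 ± 0.18 (adjusted p = 0.192). Of the 4 kept Egfr probe sets, 1424932_at at 0.20 ± 0.12 (adjusted p = 0.194) and 1432647_at at 0.34 ± 0.20 (adjusted p = 0.198) did not pass. The other 2, 1460420_a_at and 1451530_at, passed narrowly (adjusted p = 0.0499 and 0.0489 over all kept probe sets).

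Counted within genotypes, 3 of the 7 genes passed at transgenic day 7 against day 0, 1 higher and 2 lower, where 38.7% of all genes did, 18.6% higher and 20.1% lower. At transgenic day 1 against day 0, 1 of 7 passed, where 10.7% of all genes did, 6.56% higher and 4.14% lower. At transgenic day 7 against day 1, 5 of 7 passed, where 44.3% of all genes did. Btc fell by 1.63 ± 0.12 (adjusted p = 4.92e-08) and Ereg fell by 1.53 ± 0.18 (adjusted p = 7.54e-06) between these days, while Egfr rose by 0.37 ± 0.11 (adjusted p = 0.0155), a call lost without array 2 of transgenic day 1 or day 7 (adjusted p = 0.0663 and 0.0712) and without further scaling (0.12, adjusted p = 0.739). In wild-type skin 6 of 7 passed at day 1 against day 0, 1 higher and 5 lower, where 22.4% of all genes did, 10.1% higher and 12.3% lower. At wild-type day 7 against day 0, 4 of 7 passed, all lower, where 11.4% of all genes did, 5.46% higher and 5.96% lower. At wild-type day 7 against day 1, 0 of 7 passed in limma and 1, Btc at -0.46 ± 0.13 (adjusted p = 0.0643), had an unadjusted p under 0.05, where 3.06% of all genes passed. For the genotype difference in the change, 3 of 7 passed at day 7, where 23.8% of all genes did. At day 1, 0 of 7 passed in limma, with 0 at an unadjusted p under 0.05, where 0.287% of all genes passed. The shares of the 7 genes in the transgenic comparisons against day 0 are near those of all genes, and those in the wild-type ones are above them. The median over the 7 genes was -0.49 at wild-type day 1 against day 0 and -0.54 at wild-type day 7 against day 0, where the median of all genes was -0.03 in both. The shares of all genes move with single arrays as well. With 1 array left out they ran from 2.55% to 11.7% at transgenic day 1 against day 0, lowest without array 2 of transgenic day 0, and from 3.63% to 13% at wild-type day 7 against day 0, lowest without array 1 of wild-type day 7. They ran from 13% to 24.1% at wild-type day 1 against day 0, lowest without array 1 of wild-type day 1, from 0.386% to 3.72% at wild-type day 7 against day 1, lowest without array 1 of wild-type day 7, and from 0.188% to 1.41% between genotypes at day 1, lowest without array 1 of wild-type day 1. In transgenic skin the medians over the 7 were -0.28 at day 1 and -0.09 at day 7. Without array 1 of wild-type day 1 the count at wild-type day 1 was 3, and without array 1 of wild-type day 7 the count at wild-type day 7 was 1 and that between genotypes at day 7 was 3.

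Markers of some cell types changed in level in wild-type skin as well. Beside their counts, 10.7% of all genes passed at transgenic day 1 and 38.7% at transgenic day 7 against day 0. In wild-type skin 22.4% passed at day 1 and 11.4% at day 7, and between the genotypes at day 7 it was 40.5%. The 12 macrophage and monocyte markers summed to 28902 to 43141 at transgenic day 1 and to 18839 to 21609 at day 0, with 10 of 12 higher. In wild-type skin they summed to 40204 to 44585 at day 1 and to 19682 to 23761 at day 0, with 11 of 12 higher. At day 7 they summed to 19098.5 to 32265 in transgenic skin, with 0 of 12 past the threshold against day 0 in limma (0 at an unadjusted p under 0.05) at a median of 0.14, and to 45079 to 45420.2 in wild-type skin, with 11 of 12 higher than at day 0 at a median of 1.13. Between the genotypes at day 7, 11 of 12 were lower in transgenic skin, at a median of -1.03. Basal epidermis markers summed to 35808 to 41755 at wild-type day 1 and to 46544 to 50735 at day 0, with 8 of 10 lower, among them Krt14 at -0.35 ± 0.08 (adjusted p = 0.0067) and Krt5 at -0.32 ± 0.09 (adjusted p = 0.0201). The call of Krt5 was lost without array 1 or 2 of wild-type day 0 or array 1 of wild-type day 1 (adjusted p = 0.0682 to 0.104), and both calls were lost without further scaling (adjusted p = 0.383 for Krt14 and 0.448 for Krt5). Krt16, a keratin of activated epidermis, fell by 0.74 ± 0.23 in transgenic skin at day 7 (adjusted p = 0.017) and rose by 1.20 ± 0.23 in wild-type skin (adjusted p = 0.00375). Its transgenic call was lost without array 1 of transgenic day 0 (-0.44, adjusted p = 0.244) or array 1 of transgenic day 7 (-0.61, adjusted p = 0.0656), and its wild-type call without array 1 of wild-type day 7 (1.01, adjusted p = 0.0664). The part of these markers in the falls of the receptors and ligands, and in their differences between genotypes at day 7, was not tested.

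For each member, the 2 genes whose log2 values were most alike over the 16 arrays were looked up, by Pearson's r, as a description of arrays that share groups and scaling. Closest to Btc were Serpina12 (r = 0.98) and Serpinb7 (r = 0.97), both of the serpin protease inhibitor family, and closest to Ereg were Atp1b1 (r = 0.97), a subunit of the sodium pump, and Pdlim5 (r = 0.96). Serpina12 fell by 1.75 ± 0.11 in transgenic skin at day 7 against day 0 (adjusted p = 1.86e-08) and by 0.83 ± 0.11 in wild-type skin (adjusted p = 0.000373). Serpinb7 fell by 1.81 ± 0.12 in transgenic skin (adjusted p = 2.56e-08) and by 0.59 ± 0.12 in wild-type skin (adjusted p = 0.00537, but 0.0552 without array 2 of wild-type day 7). For Erbb2 the closest were Rnf43 (r = 0.89), a membrane ubiquitin ligase that lowers Wnt receptors, and Bmp6 (r = 0.86). Rnf43 exceeded the percentile used by the filter on 3 of the 16 arrays, 2 of transgenic day 7 and 1 of wild-type day 0. Bmp6 did so on 9, with 0 at wild-type day 1 or day 7. Most Rnf43 values may therefore be background, which limits what its r with Erbb2 can show. For Erbb3 the closest were Rai14 (r = 0.93) and Map7 (r = 0.93). Egfr was most like Inava (r = 0.93) and Prps2 (r = 0.93), Tgfa like Cd2ap (r = 0.90) and Pawr (r = 0.89), and Hbegf like Pgap4 (r = 0.90) and Trp53inp1 (r = 0.89). Among the members themselves, Erbb3 and Hbegf correlated at 0.86, Erbb2 and Erbb3 at 0.79, and Egfr and Ereg at -0.82.

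Other genes of the pathway were taken from 5 lists: further ligands and the receptor Erbb4, the proteases that shed ligands, feedback inhibitors, signal relay proteins, and genes that respond to the kinase ERK. The counts of these lists stand beside the shares of all genes that passed against day 0. In transgenic skin 10.7% of all genes passed at day 1 (6.56% higher, 4.14% lower) and 38.7% at day 7 (18.6% higher, 20.1% lower). In wild-type skin it was 22.4% at day 1 (10.1% higher, 12.3% lower) and 11.4% at day 7 (5.46% higher, 5.96% lower). At transgenic day 7 against day 0, 0 of 3 tested ligands were higher and 2 lower, at a median of -0.77. Egf, the founding ligand, fell by 0.86 ± 0.14 (adjusted p = 0.000177), to 145 ± 9.25 (SD, n = 3) at day 7, against 291 ± 45.8 (SD, n = 2) at day 0. Nrg4, a neuregulin that binds Erbb4, fell by 0.77 ± 0.26 (adjusted p = 0.0267), a call lost without array 1 of transgenic day 0 (-0.54, adjusted p = 0.242) or array 1 or 2 of transgenic day 7 (adjusted p = 0.0807 and 0.0608). Without array 1 or 2 of transgenic day 7, 1 of the 3 passed. In wild-type skin at day 7 neither passed, Egf at 0.07 ± 0.14 (adjusted p = 0.778) and Nrg4 at -0.32 ± 0.26 (adjusted p = 0.461). Erbb4 and Nrg3 were below the filter, and Nrg1 and Nrg2 were not analysed here.

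Of 12 tested sheddases and their regulators, 2 were higher and 2 lower at transgenic day 7, at a median of -0.13. Adam17, the main sheddase of Tgfa and Hbegf, fell by 0.41 ± 0.09 (adjusted p = 0.00139), and Adam10, known to shed Btc, rose by 0.37 ± 0.12 (adjusted p = 0.0182). The call of Adam10 was lost without array 2 of transgenic day 0 (0.17, adjusted p = 0.332) or array 2 of transgenic day 7 (0.32, adjusted p = 0.068). Timp3, an inhibitor of Adam17, fell by 1.06 ± 0.15 (adjusted p = 4.75e-05). In wild-type skin at day 7, 3 were higher and 1 lower, at a median of 0.27. Timp3 fell there too, by 0.76 ± 0.15 (adjusted p = 0.00508), though not past the threshold without array 1 of wild-type day 7 (-0.61, adjusted p = 0.088). Adam12, a metalloprotease that can shed Hbegf, rose by 0.66 ± 0.15 in transgenic skin (adjusted p = 0.00274) and by 1.37 ± 0.15 in wild-type skin (adjusted p = 6.18e-05). At day 1 Adam12 rose by 1.11 ± 0.15 in transgenic skin (adjusted p = 0.000384) and by 1.64 ± 0.14 in wild-type skin (adjusted p = 5.3e-06), where 5 of 12 members of the list were higher and 0 lower. At transgenic day 1, 2 were higher and 0 lower. Without array 1 of wild-type day 7 the count at wild-type day 7 was 1, and without array 2 of wild-type day 7 or array 2 of wild-type day 0 it was 2. It was 3 at wild-type day 1 without array 1 of wild-type day 1, and 1 at transgenic day 1 without array 2 of transgenic day 0.

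Of 12 tested feedback inhibitors, 5 were higher and 1 lower at transgenic day 7, at a median of 0.15. Dusp6, the phosphatase that switches off ERK, had 2008 ± 262 at transgenic day 7 (SD, n = 3) and 679 ± 73.3 at day 0 (SD, n = 2), a rise of 1.52 ± 0.13 (adjusted p = 2.88e-07). Lrig1, which lowers EGF receptors at the membrane, rose by 0.73 ± 0.12 (adjusted p = 0.000192), and Socs5, which promotes their degradation, rose by 0.46 ± 0.09 (adjusted p = 0.000706). Dusp1, another MAP kinase phosphatase, fell by 1.21 ± 0.11 (adjusted p = 8.17e-07). In wild-type skin at day 7, 0 were higher and 2 lower, at a median of -0.14, and Dusp6 was at 0.33 ± 0.13 (adjusted p = 0.108). At day 1, 4 were higher and 1 lower in transgenic skin, and 2 higher and 3 lower in wild-type skin. Dusp6 rose by 1.29 ± 0.13 in transgenic skin (adjusted p = 3.49e-05) and by 0.95 ± 0.11 in wild-type skin (adjusted p = 0.00012) at day 1. Errfi1, which binds and blocks the Egfr kinase, rose by 1.36 ± 0.22 in transgenic skin at day 1 (adjusted p = 0.00119), and in wild-type skin it was at 0.43 ± 0.19 (adjusted p = 0.124). The difference between genotypes in this change was 0.93 ± 0.29 and did not pass (adjusted p = 0.173). Without array 1 of transgenic day 0, 3 of the 12 passed at transgenic day 1, and without array 2 of transgenic day 0 or array 1 or 2 of transgenic day 1, 2 did. At wild-type day 1, 3 passed without array 1 of wild-type day 1. At wild-type day 7, 0 passed without array 2 of wild-type day 7, and 1 without array 1 of wild-type day 7 or array 2 or 3 of wild-type day 0.

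Of 23 tested signal relay genes, 3 were higher and 4 lower at transgenic day 7, at a median of 0.02. The kinase Braf, which relays signals from RAS to ERK, had 209 ± 18.4 at day 7 (SD, n = 3) and 85.2 ± 5.49 at day 0 (SD, n = 2). It was above the 40th percentile of its array on the 3 transgenic day 7 arrays and on 0 of the other 13, so it entered the fit only through the group where it is high, and its day 0 level may not be above background. Pik3r1, a regulatory subunit of PI3 kinase, fell by 0.84 ± 0.16 (adjusted p = 0.00054), and Sos2, an activator of RAS, fell by 0.70 ± 0.14 (adjusted p = 0.00106). Stat5b fell by 0.52 ± 0.10 (adjusted p = 0.000499), but was at 0.31 (adjusted p = 0.412) in its most variable probe set. In wild-type skin at day 7, 1 was higher and 1 lower. At day 1, 1 was higher and 1 lower in transgenic skin, and 4 higher and 2 lower in wild-type skin, where Eps8, an Egfr kinase substrate, rose by 1.09 ± 0.15 (adjusted p = 0.000277), Gab2, a docking protein below the 40th percentile on all 3 wild-type day 0 arrays, by 1.03 ± 0.21 (adjusted p = 0.00297) and the adaptor Grb2 by 0.65 ± 0.16 (adjusted p = 0.00822). Without array 1 of wild-type day 1, 3 passed at wild-type day 1. At transgenic day 1, 0 passed without either transgenic day 0 array and 4 without array 3 of transgenic day 1. The count at wild-type day 7 was 1 without array 2 of wild-type day 0 or either wild-type day 7 array.

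Of 20 tested ERK-responsive genes, 8 were higher and 5 lower at transgenic day 7, at a median of 0.25, and 1 was higher and 4 lower in wild-type skin, at a median of -0.16. Etv4, a transcription factor of the PEA3 group, had 344 ± 67.1 at transgenic day 7 (SD, n = 3) and 33.0 ± 23.3 at day 0 (SD, n = 2). It too passed the filter only through transgenic day 7, with 0 of the other 13 arrays above their 40th percentile of 101 to 132, so the size of its difference is not known. Ccnd1, which encodes cyclin D1, rose by 1.02 ± 0.09 in transgenic skin (adjusted p = 7.58e-07) and fell by 0.67 ± 0.09 in wild-type skin (adjusted p = 0.000586), the wild-type value being 0.14 (adjusted p = 0.751) in its most variable probe set. Phlda1 rose by 0.86 ± 0.16 in transgenic skin (adjusted p = 0.000532). Klf6, a transcription factor, fell by 0.80 ± 0.09 (adjusted p = 3.56e-06), with 0.25 (adjusted p = 0.432) in its most variable probe set. Maff, a small MAF factor below the 40th percentile on every transgenic day 7 and treated wild-type array, fell by 1.12 ± 0.26 in transgenic skin (adjusted p = 0.00299) and by 1.26 ± 0.26 in wild-type skin (adjusted p = 0.00635), with wild-type values at an adjusted p of 0.0501 and 0.0529 without array 1 or 2 of wild-type day 7. At day 1, 1 was higher and 4 lower in transgenic skin, and 2 higher and 3 lower in wild-type skin, where Maff fell by 1.87 ± 0.23 (adjusted p = 0.000162) and Plaur, the urokinase receptor, rose by 0.66 ± 0.14 (adjusted p = 0.00426). Without array 1 of transgenic day 0, 7 of the 20 passed at transgenic day 7. At wild-type day 7, 1 passed without either day 7 array of the genotype and 3 without array 2 or 3 of wild-type day 0. At transgenic day 1, 1 to 3 passed without any 1 transgenic day 0 or day 1 array or array 2 of wild-type day 1. At wild-type day 1, 3 passed without array 1 of wild-type day 1 and 10 without array 3. Several of these genes, Ccnd1 among them, are known to answer to other pathways as well. The shares called at transgenic day 7, 13 of 20 here, 7 of 23, 6 of 12, 4 of 12 and 2 of 3 in the other lists, stand beside the 38.7% of all genes, and the medians beside a median of all genes of 0.01. Etv4 is counted in the 13 and Braf in the 7. Both entered the fit only through the group where they are high, so their calls lend no weight to these shares.

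**Figure D4:**
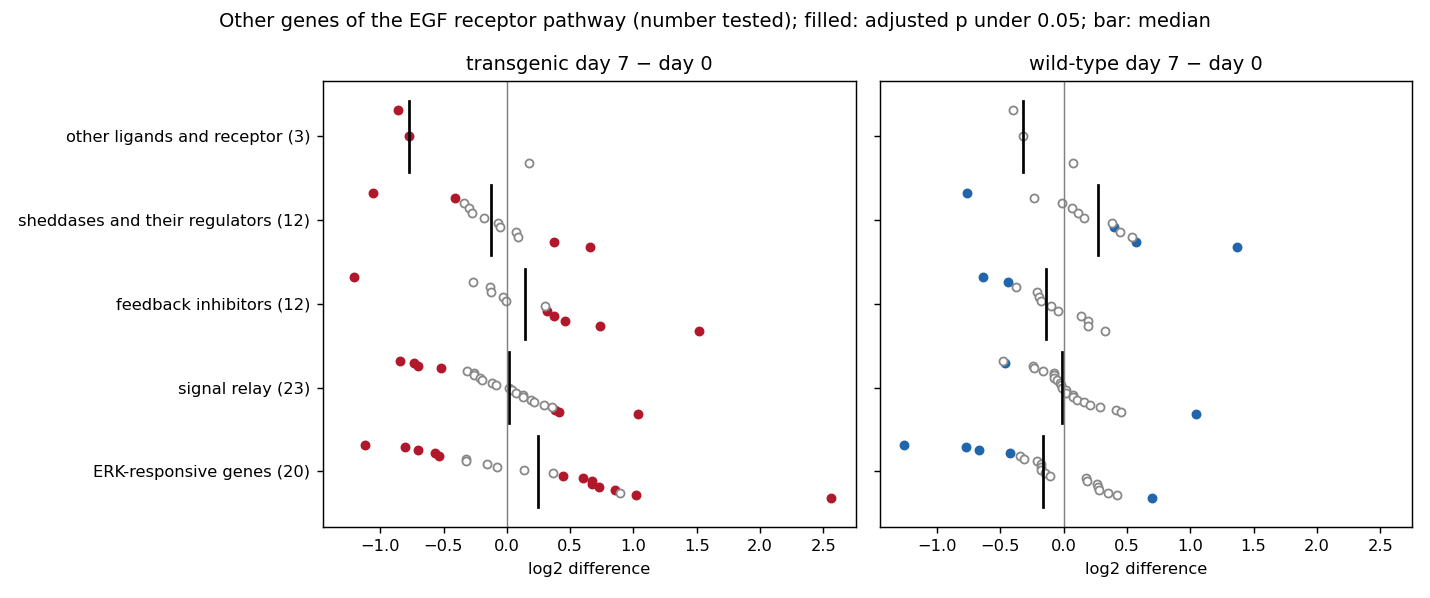
Log2 difference (x axis) of each tested gene of the 5 pathway lists at day 7 against day 0, in transgenic skin (left) and wild-type skin (right), with the number of genes tested in brackets. Filled points passed an adjusted p of 0.05 and black bars are medians. Etv4 lies furthest right in transgenic skin and passed the filter only through those day 7 arrays, so its place is no measured size. The median of the ERK-responsive genes is 0.25 there and -0.16 in wild-type skin.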

How the data were processed

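Per the labels, each array was an Affymetrix mouse expression array read after labelling with biotin. The deposited column holds the linear intensity of 22690 probe sets, 64 of which are controls, with summarising software not given in the sources used here. Arrays were scaled to 1 trimmed mean (2% removed at each end) because theirs ranged from 359 to 548, by factors of 0.825 to 1.26. Values were taken as log2(intensity + 32), so changes of dim genes are understated. Symbols came from the platform annotation, and 691 probe sets with several symbols and 1555 not listed were left out. A probe set had to exceed its array's 40th percentile on 2 or more arrays. That kept 13882 with 1 symbol, and the brightest per gene left 9058 genes.

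The fit was limma 3.58.1 (R 4.3.3) on the 6 group means, over 16 arrays, with a variance trend and 10 residual degrees of freedom. It gave two-sided tests of 11 comparisons, each with its own Benjamini-Hochberg adjustment. Every adjusted p is from limma. It is over the 9058 genes for the probe set that stands for a gene, unless all kept probe sets are stated. For any other probe set named by its number it is over the 13882 kept probe sets. Alternatives with another filter were adjusted over the genes they kept. The number of arrays limits the precision. On simulated data of 9058 genes, the share of changed genes found at transgenic day 7 against day 0 was 62.2% at 1.5-fold, 88.1% at 2-fold and 99% at 4-fold. For the genotype difference in the change to day 7 it was 25.9%, 76.6% and 97%. These shares rest on 198 to 201 changed genes at each fold. In the data far more genes passed, 3508 and 2154 in these comparisons, and the Benjamini-Hochberg adjustment depends on how many genes change. The shares therefore describe the simulation and do not give the sensitivity of the tests reported here.

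Replicate numbers were taken from the titles. The members, the gene lists and the rule for named genes were chosen with earlier results of these data known. Named genes were the members, up to 4 genes per pathway list by smallest p at transgenic day 7 against day 0 and up to 3 at day 1 of each genotype, the 2 genes most like each member, and Esr1, Krt14, Krt5 and Krt16, with up to 2 genes of a marker list set beside a result. Alternatives were other scalings, added values of 8 and 128, no filter or the 60th percentile on 3 arrays, the most variable probe set per gene, fits of the compared groups alone, no variance trend, the replicate number as a block and each array left out. Figures were drawn with matplotlib 3.10.9.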

Additional observations from a re-analysis of the deposited data

Results flagged for a closer look

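The change from day 0 to day 7 differed between the genotypes, by limma's test of the difference itself, for 3 of 7 members and 22 genes of the 5 pathway lists, where 23.8% of all genes passed. By list, 1 of 3 tested ligands, 3 of 12 sheddases and their regulators and 6 of 12 feedback inhibitors passed. Of the signal relay genes 5 of 23 passed, and of the ERK-responsive genes 7 of 20. Values are the transgenic change minus the wild-type change on the log2 scale. For Btc the difference was -1.09 (adjusted p = 0.00067), for Ereg -1.13 (adjusted p = 0.00968) and for Erbb2 0.82 (adjusted p = 0.0104), as described above.

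Of the 22 list genes, 10 had a positive difference and 12 a negative one, and 18 fall under the rule for named genes. Among these, Ccnd1 differed by 1.69, Dusp6 by 1.19, Phlda1 by 1.00, Lrig1 by 0.83, Socs5 by 0.67 and Ptprk by 0.63. Etv4 was at 2.74 and Braf at 0.75, and both were above the 40th percentile only on transgenic day 7 arrays, so these sizes are not measured. The place of these 2 genes among the 22 rests on passing the filter through that group. Egf differed by -0.94, Eps8 by -0.84, Dusp1 by -0.77, Pik3r1 by -0.77, Adam12 by -0.71, Sos2 by -0.64, Klf6 by -0.59, Adam9 by -0.58, Adam17 by -0.48 and Stat5b by -0.45. The other 4 genes, given after their values were seen, were Egr1 at 0.77, Srf at 0.45, Vegfa at -0.71 and Spry2 at -0.46.

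Several of these calls depended on 1 array. Of all tested signal relay genes, 1 passed, against 5, without array 2 of transgenic day 0 or array 2 of wild-type day 7. Without array 1 of transgenic day 0, 2 passed. Without array 2 of transgenic day 7, array 1 of wild-type day 0 or array 1 of wild-type day 7, 3 passed. Of all tested ERK-responsive genes, 4 passed, against 7, without array 1 of transgenic day 7 or array 3 of wild-type day 0. Of the tested ligands, 2 passed, against 1, without array 1 of transgenic day 0. Without further scaling, 0 relay genes passed against 5, and 0 sheddases and regulators against 3. In that setting 1 feedback inhibitor passed against 6, and 2 ERK-responsive genes against 7. With the most variable probe set per gene, 3 relay and 4 ERK-responsive genes passed, and with the replicate number as a block 4 ERK-responsive genes did.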

How the results depend on the processing

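The falls of Btc and Ereg at transgenic day 7 against day 0, their lower levels in transgenic than in wild-type skin at day 7 and the genotype differences in their change to day 7 kept direction and threshold under all 27 alternatives. Values at transgenic day 7 against day 0 ranged from -2.18 to -1.85 for Btc and from -2.22 to -1.70 for Ereg. Without further scaling, members past the threshold numbered 0 at transgenic day 1 against day 0, 2 at transgenic day 7 against day 1, 1 at wild-type day 1 against day 0 and 2 at wild-type day 7 against day 0, and Egfr at wild-type day 1 turned to -0.0293. With 1 array left out, they numbered 0 to 2 at transgenic day 1 and 2 to 4 at transgenic day 7 against day 0, 4 to 6 at transgenic day 7 against day 1, 3 to 7 at wild-type day 1 and 1 to 5 at wild-type day 7 against day 0, 0 to 1 at wild-type day 7 against day 1, 3 to 6 between genotypes at day 7 and 2 to 5 for the genotype difference in the change to day 7. The 5 came without array 3 of transgenic day 7, with Tgfa at 1.02 (adjusted p = 0.00246) and Erbb3 at 0.38 (adjusted p = 0.044). For this difference Tgfa and Erbb3 each passed under only 1 of the 27 alternatives. Over these alternatives Tgfa ranged from -0.25 to 1.02, so its direction was not stable, and Erbb3 from 0.20 to 0.38. Deviations of same-numbered arrays in different groups correlated at -0.25 to 0.19, with 7 of 36 pairs over 0.1, so the numbers were not taken to pair the arrays. With the replicate number as a block, the Egfr difference between genotypes at day 7 was 0.31 (adjusted p = 0.0801), no other call of a member changed, and 4 of all genes passed for the genotype difference in the change to day 1, against 26. With the most variable probe set per gene, 13 values of members changed sign, with no call in either fit. Among them were Tgfa at wild-type day 1 (0.62) and at wild-type day 7 (0.70) against day 0. Some genes other than members also had the opposite sign, with a call in at least 1 of the fits. These were Ptprk at 0.42, Stat5b at 0.31 and Klf6 at 0.25 at transgenic day 7 against day 0, and Socs5 at -0.35, Klf6 at 0.68, Trp53inp1 at 0.41 and Cd2ap at 0.51 at wild-type day 1. At wild-type day 7 they were Ccnd1 at 0.14, Pdlim5 at 0.53 and Cd2ap at 0.33, and for the genotype difference in the change to day 7 they were Stat5b at 0.0929 and Cd2ap at -0.0012. Without further scaling, all genes past the threshold numbered 1775 against 3508 with it at transgenic day 7 against day 0, 1891 against 4011 at transgenic day 7 against day 1, 187 against 969 at transgenic day 1, 469 against 2027 at wild-type day 1, 258 against 1035 at wild-type day 7, 74 against 277 at wild-type day 7 against day 1, 16 against 119 between genotypes at day 1, 1739 against 3669 at day 7, and 7 against 26 and 724 against 2154 for the genotype differences in the change to day 1 and day 7. Fits of the compared groups alone gave 453 at transgenic day 1, 182 at wild-type day 7 against day 1, 27 between genotypes at day 1 and 12 for the genotype difference in the change to day 1. No filter gave 79 and 8 in the last 2 of these, and no variance trend gave 15 in the last. Without further scaling the share of calls that were higher was 29.4% against 48.1% at transgenic day 7 against day 0, 81.9% against 44.9% at wild-type day 1, 64% against 47.8% at wild-type day 7 and 39% against 50.8% for the genotype difference in the change to day 7. At transgenic day 7 it left 1 of the sheddases past the threshold against 4, 2 of the feedback inhibitors against 6 and 8 of the ERK-responsive genes against 13. At transgenic day 1 the ERK-responsive genes numbered 0 to 3 against 5 in 5 alternatives. The test of every probe set by itself was chosen after seeing the data. The cause of these shifts was not tested. The dim probe sets of Hbegf limit what can be seen of that gene.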
